A study of Mus musculus with 12 samples.

Results

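The membrane proteins of tight junctions were examined as a set of 9 genes, chosen by name from the claudin, occludin and angulin families, out of 49315 genes counted in each library. The choice was made with earlier results of these data known. They are the claudins Cldn1, Cldn3, Cldn5, Cldn11 and Cldn12, the occludin family genes Ocln, Marveld2 and Marveld3, and the angulin Lsr. All 9 were present in the deposited counts and TPM (a transcript abundance corrected for gene length and library size). RNA-seq was performed on endothelial cells of the embryonic mouse forebrain at E15.5, with 4 embryos of each of 3 genotypes and 1 embryo per library. Wild-type embryos carried no mutation of Gpr124, a seven-pass receptor of brain endothelium that promotes WNT7 signaling and is listed under the symbol Adgra2. Gpr124ΔC/ΔC embryos were homozygous for an allele made with CRISPR/Cas9, in which a V5 tag and a stop codon follow the last transmembrane segment, so that the intracellular tail is missing. Gpr124-/- embryos were homozygous for a lacZ knockout allele. Both alleles are present in every cell of the embryo, so neither limits the mutation to endothelium. Cells were sorted as CD31+ and negative for CD140b, CD45 and the dead-cell dye 7-AAD.

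A tight junction seals the gap between neighboring endothelial cells. Claudins are four-pass membrane proteins whose extracellular loops pair across the gap, and claudin-5 is the claudin for which the endothelium of the blood-brain barrier is best known. Occludin (Ocln), tricellulin (Marveld2) and Marveld3 share the MARVEL membrane domain, and tricellulin gathers where 3 cells meet. Angulin-1, the product of Lsr (lipolysis-stimulated lipoprotein receptor), marks these tricellular corners and recruits tricellulin to them. The comparisons asked how far the loss of the intracellular tail of GPR124, or of the whole gene, was accompanied by a change in these transcripts.

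Of the 9 genes, 7 had enough reads for the test, and 4 of these passed as lower in Gpr124-/- than in wild type at an edgeR adjusted p under 0.05, namely Cldn5, Ocln, Marveld2 and Lsr. Of all 16637 tested genes, 9.32% did. The bases upstream of their RefSeq starts (GRCm38.p6, RefSeq promoter table) are shown because these genes passed in the same direction. Each run is written 5′ to 3′ on the gene's own strand and ends next to the start. Capitals mark matches, on either strand, to 5 motifs searched by their letters. The motif of the TCF/LEF partners of β-catenin was searched as CTTTGA. The SOX factor motif was searched as ATTGTT. The FOX factor motif was searched as GTAAACA. The ETS factor motif was searched as CCGGAA. The TATA box was searched as TATAAA. The windows are chr16:18776597-18776846, plus strand, for Cldn5, chr13:100552719-100552968, minus strand, for Ocln, chr13:100616972-100617164, minus strand, for Marveld2 and chr7:30973470-30973719, minus strand, for Lsr. The Marveld2 window was shortened to 193 bases where an exon of Rad17 begins.
Cldn5: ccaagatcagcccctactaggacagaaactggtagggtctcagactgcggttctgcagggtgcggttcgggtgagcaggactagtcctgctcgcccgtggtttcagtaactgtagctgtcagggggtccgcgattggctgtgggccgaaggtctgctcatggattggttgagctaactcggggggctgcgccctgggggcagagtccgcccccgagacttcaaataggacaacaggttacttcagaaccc
Ocln: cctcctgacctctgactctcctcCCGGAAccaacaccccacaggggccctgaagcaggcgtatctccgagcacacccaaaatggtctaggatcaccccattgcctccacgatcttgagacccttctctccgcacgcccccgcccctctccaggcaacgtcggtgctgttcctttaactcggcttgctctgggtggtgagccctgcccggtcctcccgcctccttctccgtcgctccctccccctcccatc
Marveld2: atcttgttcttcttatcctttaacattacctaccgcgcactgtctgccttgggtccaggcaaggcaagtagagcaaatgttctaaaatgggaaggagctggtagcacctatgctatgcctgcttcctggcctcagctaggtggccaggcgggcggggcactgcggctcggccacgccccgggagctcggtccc
Lsr: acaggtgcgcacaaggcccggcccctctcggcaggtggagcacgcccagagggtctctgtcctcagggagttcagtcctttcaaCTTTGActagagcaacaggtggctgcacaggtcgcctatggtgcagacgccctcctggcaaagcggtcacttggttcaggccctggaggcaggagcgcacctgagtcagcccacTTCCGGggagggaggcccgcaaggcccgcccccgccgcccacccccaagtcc

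Of the 9 genes, 8 had a window in this table. The Lsr window held CTTTGA, from 166 to 161 bases before the start, and an ETS match on the opposite strand from 52 to 47 bases before it. The Ocln window held 1 ETS match, from 227 to 222 bases before the start, and the Cldn12 window held 1 from 21 to 16 bases before it. No match to the 5 motifs was found in the windows of Cldn1, Cldn3, Cldn5, Cldn11 and Marveld2. Among all 32851 windows of 250 bases in the table, 13.8% held the TCF/LEF letters, 9.42% the SOX letters, 3.17% the FOX letters, 12% the ETS letters and 12.4% the TATA box letters. The matches describe letters in these windows and not bound sites.

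Libraries held 17063091 to 22551163 counted reads in wild type, 13877572 to 16033001 in Gpr124ΔC/ΔC and 14987249 to 22215659 in Gpr124-/-. Adgra2 was measured at 28.3 to 51.1 TPM in wild type, 34.1 to 63.4 TPM in Gpr124ΔC/ΔC and 4.03 to 6.29 TPM in Gpr124-/-, so the knockout libraries matched their label. A truncating insertion need not lower the transcript, and Adgra2 therefore does not check the ΔC label. The summed TPM of 15 endothelial marker genes ranged from 7103 to 8509 in wild type, 6482 to 9400 in Gpr124ΔC/ΔC and 7820 to 9560 in Gpr124-/-, and none of these markers had a mean below 1 TPM in any genotype. Of these 15 markers, 6 passed as higher and 2 as lower in Gpr124-/- than in wild type (median log2 fold change 0.337). Among all tested genes, 10.5% were higher and 9.32% lower. In Gpr124ΔC/ΔC against wild type 1 marker passed as higher and 0 as lower, beside 1.85% and 2.24% of all tested genes. The sums thus do not mean that each marker was unchanged. In bulk RNA, fewer cells of a type and less RNA per cell cannot be told apart, which applies to every level given here. Summed erythroid marker TPM was higher in Gpr124-/- (17821 to 54255) than in wild type (7030 to 11776) or Gpr124ΔC/ΔC (5449 to 9900). Summed macrophage and microglia marker TPM was also higher in Gpr124-/- (28.1 to 41.8) than in wild type (6.49 to 13.3) or Gpr124ΔC/ΔC (13.5 to 14.9), but 7 of these 10 markers had a mean under 1 TPM in each genotype. Of the 4 that were tested, 1 passed as higher in Gpr124-/- than in wild type, P2ry12 (log2 fold change 2.57), and Mrc1 had a log2 fold change of −1.42 that did not pass (edgeR adjusted p = 0.0612). Both were named after their values were seen. Summed neural progenitor marker TPM was 237 to 300 in Gpr124-/-, 198 to 233 in wild type and 182 to 219 in Gpr124ΔC/ΔC, and most of it was Notch1 and Nes (means of 88.8 and 85.6 TPM in wild type). Of 9 tested progenitor markers, 0 passed as higher in Gpr124-/- than in wild type with edgeR (2 at an unadjusted p under 0.05, Notch1 at 0.0298 and Nes at 0.0396), and 1 passed as lower, Slc1a3 (log2 fold change −2.15, and −1.95 in Gpr124ΔC/ΔC). These 3 were also named after their values were seen. Summed pericyte marker TPM was 42.6 to 99.1 in wild type, 23.4 to 49.4 in Gpr124ΔC/ΔC and 44.5 to 53.6 in Gpr124-/-. The median log2 fold change of its 10 genes in Gpr124ΔC/ΔC against wild type was −0.904. Of these, 1 passed as lower, Higd1b (−1.54, edgeR adjusted p = 0.043), beside 2.24% of all tested genes. In Gpr124-/- against wild type 1 of the 10 passed as lower, Rgs5 (−1.47), and 1 as higher, Abcc9 (2.66). Among all tested genes, 9.32% were lower and 10.5% higher. Between the mutants 2 passed as higher in Gpr124-/-, Abcc9 (2.75) and Kcnj8 (1.43), beside 4.93% of all tested genes. Higd1b, Rgs5, Abcc9 and Kcnj8 were also named after their values were seen. The part of these other cells in the results was not tested. The meaning of the first letter of the embryo labels (J, K, L or M) is not stated. Wild-type embryos span J, K and L, Gpr124ΔC/ΔC embryos J and L, and Gpr124-/- embryos K and M, with M holding only Gpr124-/-. The mutants share no letter, and per the paper each came from its own cross of heterozygous parents. A difference between the mutants therefore cannot be told apart from one of letter or cross.

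Cldn5 was the dominant claudin in all 12 libraries and its transcript fell in both mutants. The gene (ENSMUSG00000041378) is a single exon of 1414 bases on chromosome 16 of GRCm38, plus strand, from 18776847 to 18778260. Wild-type embryos JE1, JE6, KE8 and LE6 had 9172, 7613, 9816 and 10108 TPM. Gpr124ΔC/ΔC embryos JE3, JE4, LE2 and LE5 had 3531, 4687, 5309 and 6451 TPM. Gpr124-/- embryos KE4, ME1, ME4 and ME5 had 2721, 1877, 1881 and 2186 TPM. The 3 genotypes did not overlap, and the lowest wild-type embryo stood above the highest Gpr124ΔC/ΔC embryo. Means were 9177 ± 1114, 4994 ± 1219 and 2166 ± 397 TPM (SD, n = 4), so that 54.4% of the wild-type level was found in Gpr124ΔC/ΔC and 23.6% in Gpr124-/-.

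**Figure D1:**
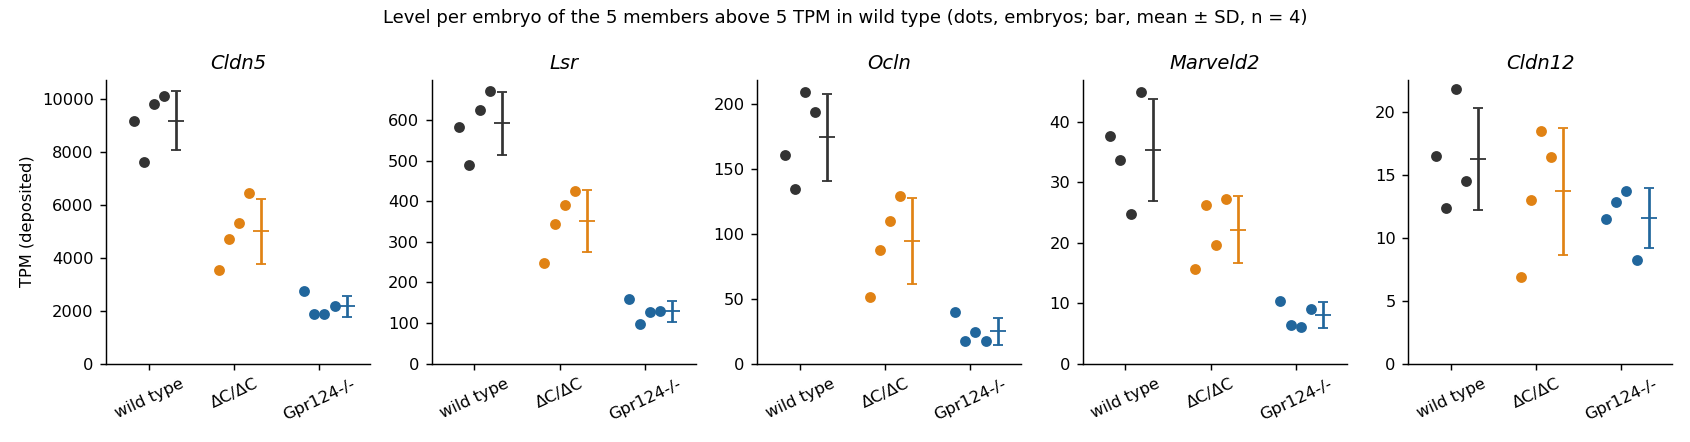
TPM (vertical axes, from 0, a separate scale for each gene) of Cldn5, Lsr, Ocln, Marveld2 and Cldn12 in wild-type, Gpr124ΔC/ΔC and Gpr124-/- embryos. Dots are embryos and bars are mean ± SD (n = 4). For Cldn5, Lsr and Ocln the 3 genotypes occupy separate ranges, for Marveld2 the wild-type embryo KE8 (24.7 TPM) lies within the Gpr124ΔC/ΔC range, and for Cldn12 the genotypes overlap.

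Tested on counts with edgeR (quasi-likelihood, p adjusted by Benjamini-Hochberg over 16637 genes), Cldn5 had a log2 fold change of −2.12 in Gpr124-/- compared with wild type (standard error 0.14, adjusted p = 6.6e-07). In Gpr124ΔC/ΔC it was −0.97 (standard error 0.14, edgeR adjusted p = 0.00139). Between the mutants, Gpr124-/- was lower than Gpr124ΔC/ΔC by −1.15 on the log2 scale (standard error 0.14, edgeR adjusted p = 0.000426). This last call was lost when the label letter was added as a term (log2 fold change −0.89, adjusted p = 0.0983), a fit in which Gpr124-/- and wild type are compared through KE4 and KE8 alone. Within letter J the difference of Gpr124ΔC/ΔC from wild type was −1.09 on the log2 CPM scale, within L it was −0.89, and KE4 was lower than KE8 by −1.90.

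By mean TPM, Cldn5 ranked 5 among all genes in wild type, 9 in Gpr124ΔC/ΔC and 32 in Gpr124-/-. It made up 0.918%, 0.499% and 0.217% of all TPM, respectively. Of the summed TPM of 25 claudin genes, Cldn5 accounted for 99.7% to 99.8% in wild-type embryos, 99.5% to 99.6% in Gpr124ΔC/ΔC and 98.9% to 99.3% in Gpr124-/-. The other claudins together came to 19.1 to 29.7 TPM in wild type, 17.3 to 24.8 in Gpr124ΔC/ΔC and 16.7 to 20.3 in Gpr124-/-. Thus the remaining claudin transcripts were few in every genotype, and the drop in the claudin sum was a drop in Cldn5.

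Cldn12, a claudin of broad tissue distribution, was the only other claudin among the 9 genes above 5 TPM, and no difference between genotypes passed the test. It lies on chromosome 5, minus strand, from 5489537 to 5514958. Wild-type embryos had 16.5, 12.3, 21.8 and 14.5 TPM, Gpr124ΔC/ΔC embryos 6.88, 12.97, 18.4 and 16.4 TPM, and Gpr124-/- embryos 11.5, 12.8, 13.7 and 8.25 TPM, in the order of embryos given for Cldn5. The ranges overlapped in all 3 comparisons. The log2 fold change was −0.53 in Gpr124-/- against wild type (95% interval −1.04 to −0.02, edgeR adjusted p = 0.144) and −0.36 in Gpr124ΔC/ΔC against wild type (−0.86 to 0.15, edgeR adjusted p = 0.589). Between the mutants it was −0.17 (−0.68 to 0.34, edgeR adjusted p = 0.698). With the label letter as a term, the Cldn12 value in Gpr124-/- against wild type was −0.97 (adjusted p = 0.218). The lowest of the bounds above, −1.04, lay above the upper bound of Cldn5 in Gpr124-/- (−1.81).

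Cldn1, a claudin of epithelia, was detected at few reads and varied widely between embryos. Its counts were 25, 60, 42 and 17 in wild type (JE1, JE6, KE8, LE6), 85, 45, 12 and 51 in Gpr124ΔC/ΔC (JE3, JE4, LE2, LE5) and 20, 2, 4 and 18 in Gpr124-/- (KE4, ME1, ME4, ME5). The levels were 1.64 ± 0.94, 2.76 ± 1.42 and 0.56 ± 0.49 TPM (SD, n = 4), and the genotypes overlapped in every comparison. The log2 fold change was −1.60 in Gpr124-/- (edgeR adjusted p = 0.138) and 0.70 in Gpr124ΔC/ΔC (edgeR adjusted p = 0.743) against wild type, and −2.31 between the mutants (edgeR adjusted p = 0.0599). The last value did not pass in 16 of 20 alternatives, including the fit with the letter term (adjusted p = 0.765), and its log2 fold change ranged from −2.77 to −1.22 over all of them. It passed with DESeq2 (adjusted p = 0.00866), without a filter on low counts (0.0491), without LE2 (0.0357) and without KE4 (0.0428). Summed TPM of 12 markers of choroid plexus and other epithelium was highest in JE3 (1607), the embryo with the highest Cldn1, followed by JE4 (1056) and JE6 (833). In the other 9 embryos it ranged from 115 to 535, and LE5, next to JE3 in Cldn1 TPM, was at 279, with 2 of the 12 markers at 0 in all libraries. Of the 8 markers with enough reads for the test, Ttr had the highest mean over the 12 libraries (191 CPM). Aqp1 (31.4 CPM) and Clic6 (5.78 CPM) came next. The part of choroid plexus or other epithelial cells in the Cldn1 values was not tested.

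Cldn3 was near the limit of detection, with 5 to 14 reads in wild type, 3 to 10 in Gpr124ΔC/ΔC and 5 to 17 in Gpr124-/-. Its log2 fold changes against wild type were −0.27 in Gpr124-/- (edgeR adjusted p = 0.781) and −0.54 in Gpr124ΔC/ΔC (edgeR adjusted p = 0.796), and between the mutants 0.27 (edgeR adjusted p = 0.816). The intervals, from −1.42 to 0.87, from −1.73 to 0.64 and from −0.95 to 1.49, span falls and rises of more than 0.5 on the log2 scale, and no difference was detectable at this depth.

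Cldn11, the claudin of myelin and of the arachnoid barrier, had too few reads for the main test. It was counted 2, 4, 33 and 5 times in wild type, 4, 5, 10 and 0 times in Gpr124ΔC/ΔC and 1, 5, 0 and 2 times in Gpr124-/-. The 0 counts in LE5 and ME4 allow up to 0.306 and 0.222 TPM, the levels that 3 reads would give there. The single high value, 2.66 TPM, was in wild-type embryo KE8, which also had the highest summed TPM of 12 meningeal fibroblast markers (108, against 29.9 to 58.2 elsewhere) and of 10 pericyte markers (99.1, against 23.4 to 68.2). The part of these cells in that value was not tested. In the fit without a count filter, no comparison of Cldn11 passed, with a log2 fold change of −2.20 in Gpr124-/- (edgeR adjusted p = 0.255) and −0.82 in Gpr124ΔC/ΔC (edgeR adjusted p = 0.824) against wild type.

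**Figure D2:**
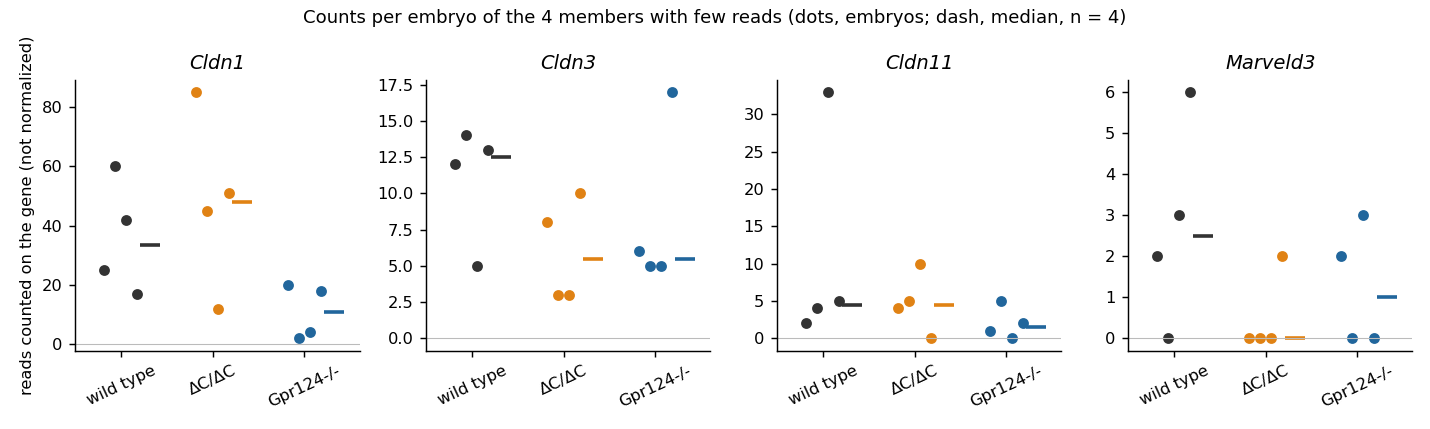
Reads counted on Cldn1, Cldn3, Cldn11 and Marveld3 (vertical axes, not normalized, a separate scale for each gene) in each embryo of the 3 genotypes. Dots are embryos and dashes are medians (n = 4). Cldn1 reaches 85 reads in JE3, Cldn11 has 1 high wild-type embryo at 33 reads, and Marveld3 does not exceed 6 reads.

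Ocln showed the largest fold change of the 9 genes in Gpr124-/- against wild type. The gene (ENSMUSG00000021638) lies on chromosome 13, minus strand, from 100496507 to 100552718. Wild-type embryos had 160, 134, 209 and 194 TPM, Gpr124ΔC/ΔC embryos 51.4, 87.2, 110 and 129 TPM, and Gpr124-/- embryos 39.8, 17.3, 24.5 and 17.2 TPM. The ranges of the 3 genotypes were separate, although LE5 (129) came close to JE6 (134) and JE3 (51.4) close to KE4 (39.8). Means were 174 ± 33.4, 94.4 ± 33.4 and 24.7 ± 10.6 TPM (SD, n = 4), which put Gpr124ΔC/ΔC at 54.2% and Gpr124-/- at 14.2% of wild type. The log2 fold change in Gpr124-/- was −2.87 (standard error 0.27, edgeR adjusted p = 9.78e-06) against wild type and −1.88 (standard error 0.26, edgeR adjusted p = 0.00109) against Gpr124ΔC/ΔC. In Gpr124ΔC/ΔC against wild type it was −0.98 (standard error 0.26), which missed the threshold (edgeR adjusted p = 0.0512) and passed in 8 of 21 alternatives, among them DESeq2 (adjusted p = 0.00552), the label letter as a term (0.000621), and leaving out LE5 (0.035), KE4 (0.0147) or ME5 (0.0428), with adjusted p from 0.000621 to 0.28 over all of them. Within letter J the difference was −1.18 and within L −0.80 on the log2 CPM scale.

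Marveld2, which encodes tricellulin, was lower in Gpr124-/- than in wild type. Its gene (ENSMUSG00000021636) is on the same strand as Ocln from 100595957 to 100616971, 43.2 kb away with 0 annotated genes between them. Wild-type embryos had 37.8, 33.8, 24.7 and 45.0 TPM, Gpr124ΔC/ΔC embryos 15.6, 26.2, 19.6 and 27.3 TPM, and Gpr124-/- embryos 10.4, 6.43, 6.04 and 9.11 TPM. All Gpr124-/- embryos were below all others, while the wild-type embryo KE8 fell below 2 of the Gpr124ΔC/ΔC embryos. Means were 35.3 ± 8.47, 22.2 ± 5.57 and 8.003 ± 2.12 TPM (SD, n = 4). The log2 fold change was −2.19 in Gpr124-/- against wild type (standard error 0.23, edgeR adjusted p = 2.22e-05), and −1.42 between the mutants (standard error 0.23, edgeR adjusted p = 0.00229). With the label letter as a term, the first of these was −1.29 (adjusted p = 0.0434), and the difference between the mutants was lost (log2 fold change −0.36, adjusted p = 0.938). KE4 was lower than KE8 by −1.28 on the log2 CPM scale. In Gpr124ΔC/ΔC the value of −0.76 (standard error 0.22) against wild type missed the threshold (edgeR adjusted p = 0.0801), and passed without KE8 (log2 fold change −0.91, adjusted p = 0.0277), with DESeq2 (0.0184) and with the letter term (0.00612), out of a range from 0.00612 to 0.335.

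Marveld3 was at most 0.278 TPM in any library. It had 2, 0, 3 and 6 reads in wild type, 0, 0, 0 and 2 in Gpr124ΔC/ΔC and 2, 0, 3 and 0 in Gpr124-/-. The level that 3 reads would give, taken as the upper limit at a count of 0, was 0.14 to 0.204 TPM depending on the library. No comparison passed in the fit without a count filter (edgeR adjusted p = 0.682 for Gpr124-/- and 0.737 for Gpr124ΔC/ΔC against wild type).

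Lsr was the second most abundant of the 9 transcripts, above Ocln, and fell in both mutants. The gene (ENSMUSG00000001247) lies on chromosome 7, minus strand, from 30957770 to 30973464. Wild-type embryos had 582, 490, 626 and 671 TPM, Gpr124ΔC/ΔC embryos 249, 344, 391 and 425 TPM, and Gpr124-/- embryos 160, 97.6, 126 and 130 TPM, with no overlap between genotypes. Means were 592 ± 77.2, 352 ± 76.4 and 128 ± 25.4 TPM (SD, n = 4), or 59.5% of wild type in Gpr124ΔC/ΔC and 21.7% in Gpr124-/-. The log2 fold change was −2.25 in Gpr124-/- (standard error 0.14, edgeR adjusted p = 3.44e-07) and −0.84 in Gpr124ΔC/ΔC (standard error 0.13, edgeR adjusted p = 0.00259) against wild type. Between the mutants it was −1.41 (standard error 0.13, edgeR adjusted p = 0.000145). Within letters J and L the difference of Gpr124ΔC/ΔC from wild type was −0.92 and −0.82 on the log2 CPM scale. The antisense gene Gm4673 overlaps 946 of the 2172 exonic bases of Lsr and had log2 fold changes of −2.005 and −0.82 against wild type in Gpr124-/- and Gpr124ΔC/ΔC. The strand setting of the counting is not given in the sources used here, so reads of the 2 genes in the overlap cannot be told apart.

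**Figure D3:**
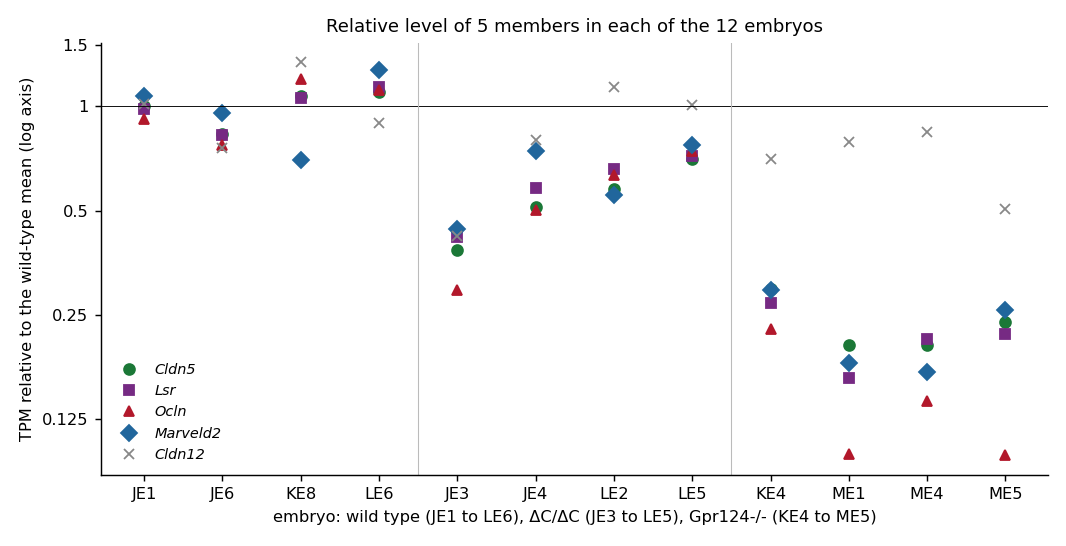
TPM of Cldn5, Lsr, Ocln, Marveld2 and Cldn12 divided by the wild-type mean of the same gene (vertical axis, log scale) in each of the 12 embryos (horizontal axis), with vertical lines between genotypes. Symbols are genes. In Gpr124-/- embryos Ocln is the lowest of the 5 and Cldn12 stays apart from the other 4. In Gpr124ΔC/ΔC embryo JE3 all 5 are lower than in the other embryos of that genotype.

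Thus 4 of the 7 tested genes were lower in Gpr124-/- than in wild type at an adjusted p under 0.05, and the same 4 also had an absolute log2 fold change above 1. Among all 16637 tested genes, 9.32% were lower at the first threshold and 4.21% past both, while 10.5% were higher at the first. In Gpr124ΔC/ΔC against wild type, 2 of the 7 passed as lower, Cldn5 and Lsr, against 2.24% of all genes, and 0 were also past the fold threshold, against 1.03% of all genes. No member was past both thresholds in that comparison at an unadjusted p under 0.05 with edgeR either (0), nor at an adjusted p with DESeq2 (0) or limma on log2(TPM + 1) (0). However, Cldn5 (−0.97) and Ocln (−0.98) lay just short of the fold threshold. Ocln was past both with the letter term (−1.02, edgeR adjusted p = 0.000621) and without LE5 (−1.16, edgeR adjusted p = 0.035). The count in other alternatives is given in the last section. Between the mutants, 4 of the 7 were lower in Gpr124-/- at both thresholds, against 3.89% and 1.94% of all genes. No member was higher in any comparison with edgeR (0 at an adjusted p and 0 at an unadjusted p under 0.05), DESeq2 (0) or limma (0), against 10.5%, 1.85% and 4.93% of all genes. The median log2 fold change of the 7 genes was −2.12, −0.765 and −1.41 in the 3 comparisons, against −0.01, 0.01 and −0.02 over all tested genes. The comparisons share libraries, so the 3 sets of values are not independent of each other. Because the genes were chosen with earlier results of these data known, the shares of all genes are descriptions and no test of the set. The mutants share no label letter, so values between them cannot be told apart from a difference of letter.

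**Figure D4:**
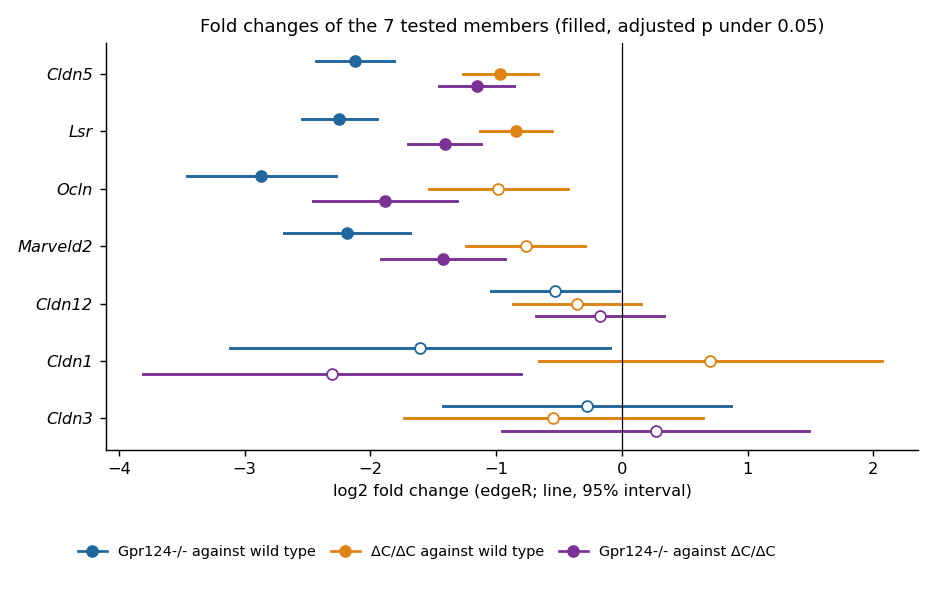
Log2 fold change (horizontal axis, edgeR) of the 7 tested genes in the 3 comparisons, with 95% intervals as lines. Filled circles passed an adjusted p under 0.05. Cldn5, Lsr, Ocln and Marveld2 lie left of 0 in every comparison, and the intervals of Cldn1 and Cldn3 are the widest.

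**Figure D5:**
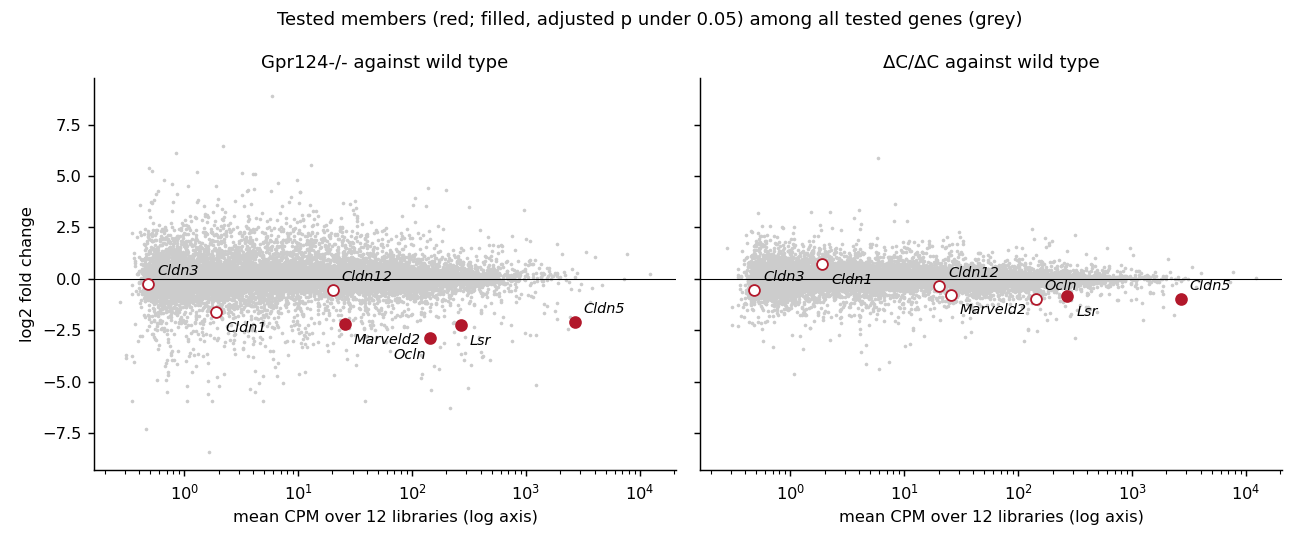
Log2 fold change against wild type (vertical axis) and mean CPM over the 12 libraries (horizontal axis, log scale) of all 16637 tested genes (grey) and the 7 tested members (red, filled at an adjusted p under 0.05), in Gpr124-/- (left) and Gpr124ΔC/ΔC (right). Cldn5 lies near the right edge of the cloud, and the 4 filled circles on the left lie between −2.12 and −2.87.

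The ratio of Cldn5 to Ocln TPM was 47.0 to 57.2 in wild-type embryos, 48.3 to 68.7 in Gpr124ΔC/ΔC and 68.4 to 127 in Gpr124-/-, which did not overlap wild type. The ratio of Lsr to Marveld2 TPM was 14.5 to 25.3, 13.1 to 19.97 and 14.3 to 20.9, respectively, and overlapped between all genotypes. After subtraction of the genotype mean of log2 CPM, Pearson's r over the 12 libraries was 0.88 for Cldn5 and Lsr, 0.84 for Ocln and Lsr, and 0.77 for Cldn5 and Ocln. For Marveld2 it was 0.57 with Cldn5, 0.52 with Lsr and 0.24 with Ocln. The points share library and depth, and the values are descriptions. Among Gpr124ΔC/ΔC embryos JE3 was lowest for all 4 genes, by −0.26 (Cldn5), −0.59 (Ocln), −0.27 (Marveld2) and −0.27 (Lsr) from the genotype mean. JE3 also had the lowest endothelial marker sum of the 12 libraries (6482). Among Gpr124-/- embryos KE4, the only one outside letter M, was highest for all 4, by 0.29, 0.72, 0.36 and 0.28. KE8 was low for Marveld2 (−0.53) but not for Cldn5 (0.05), Ocln (0.23) or Lsr (0.04).

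Across the 12 libraries, the 5 genes most correlated with Cldn5 in log2 CPM were Ptges, Angptl4, Slc38a3, Ctsh and Cdh11 (r from 0.994 to 0.999), and Lsr ranked 11. For Ocln the most correlated genes included Slc40a1, Slc1a4, Gatm and Tnfrsf19 (r from 0.994 to 0.997). For Marveld2 they included Tmem51, Ostf1, Steap3 and Alas1 (r from 0.9688 to 0.9748), and for Lsr Cdh11, Apod, Spock2 and Slc1a4 (r from 0.994 to 0.997). These correlations include the difference between genotypes, so genes that differ alike between the genotypes correlate highly.

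Neighboring genes were examined at the 4 loci. Cdc45, 2.2 kb from Cldn5, Gtf2h2, 3.9 kb from Ocln, Rad17, 0.2 kb from Marveld2, and Usf2, 1 kb from Lsr, did not pass in any comparison (log2 fold change in Gpr124-/- against wild type −0.02, −0.38, −0.04 and −0.25). On the other side, Sept5, 146.9 kb from Cldn5, and Fam187b, 0.3 kb from Lsr, were lower in Gpr124-/- than in wild type (log2 fold change −0.92 and −1.37, edgeR adjusted p = 0.00824 and 0.0103).

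Of the 23 other claudin and angulin genes in the files, 3 had enough reads for the test. Ildr2, another angulin, was lower in Gpr124-/- (1.80 ± 1.40 TPM) than in wild type (15.4 ± 11.5 TPM, SD, n = 4), with a log2 fold change of −3.15 (edgeR adjusted p = 0.0137) although the embryos overlapped, and this call was lost with the letter term and with limma (adjusted p up to 0.126). In Gpr124ΔC/ΔC its log2 fold change was −2.01 (edgeR adjusted p = 0.208). Cldn7 (0.745 ± 0.359 TPM in wild type and 2.001 ± 0.0888 in Gpr124-/-) had a log2 fold change of 1.35 (edgeR adjusted p = 0.055), which passed in 5 of 20 alternatives (adjusted p from 0.027 to 0.188). The claudin-domain gene Cldnd1 (126 ± 44.7 TPM in wild type) had one of 0.27 (edgeR adjusted p = 0.504). Cldnd2 was at 2.19 ± 0.633 TPM in wild type, 0.633 ± 0.327 in Gpr124ΔC/ΔC and 0.407 ± 0.544 in Gpr124-/- and was not tested. The median of the 3 tested genes was 0.27 in Gpr124-/- against wild type.

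Among cytoplasmic scaffolds and adhesion partners of the junction, 25 genes were tested, of which 8 were lower and 2 higher in Gpr124-/- than in wild type, with a median log2 fold change of −0.30, beside 9.32% lower and 10.5% higher of all tested genes. Igsf5, a junctional adhesion molecule, fell from 19.1 ± 3.83 to 1.47 ± 0.314 TPM (log2 fold change −3.72, edgeR adjusted p = 4.08e-06), and the polarity protein gene Pard6g from 16.3 ± 2.30 to 4.10 ± 0.437 TPM (−2.04). Cgnl1, which encodes paracingulin, fell by 0.51 on the log2 scale, while Amotl2, an angiomotin family gene, rose by 0.88 and the adhesion molecule gene Jam3 by 0.69. In Gpr124ΔC/ΔC 2 genes were lower than in wild type, Igsf5 (−2.06) and Pard6g (−1.44), beside 2.24% of all tested genes. Between the mutants 2 were lower in Gpr124-/-, Igsf5 (−1.66) and Tjp1, the gene of ZO-1 (−0.61), and 1 was higher, Amotl2 (0.51), beside 3.89% lower and 4.93% higher of all tested genes. Tjp1 was at 175 ± 40.2 TPM in wild type, 175 ± 45.9 in Gpr124ΔC/ΔC and 111 ± 24.5 in Gpr124-/- (SD, n = 4). The call of Tjp1 between the mutants (edgeR adjusted p = 0.045) was lost without any one of JE6, LE6, JE4, LE2, LE5, ME1, ME4 or ME5 (adjusted p up to 0.132), and that of Amotl2 (edgeR adjusted p = 0.0408) without any one of JE1, JE6, LE6, JE3, JE4, LE5, ME4 or ME5 (up to 0.103). Jam3 and Tjp1 were named after their values were seen.

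Among 18 tested genes known as regulators of claudin and occludin expression or turnover, 6 were lower and 2 higher in Gpr124-/- than in wild type, with a median of −0.18, beside 9.32% lower and 10.5% higher of all tested genes. Sox7, an endothelial SOX factor, fell in both mutants (−0.47 and −0.72). Lef1, a nuclear partner of β-catenin, fell in Gpr124-/- (−0.70), and its value of −0.16 in Gpr124ΔC/ΔC did not pass. The 2 genes that rose in Gpr124-/- were Cdh5 and Snai1. Cdh5, the gene of VE-cadherin, rose from 306 ± 28.2 to 529 ± 28.4 TPM (log2 fold change 0.74, edgeR adjusted p = 0.00169), in the same embryos in which Cldn5, Ocln, Marveld2 and Lsr fell. Snai1, a transcriptional repressor of junction genes, had a log2 fold change of 1.88 (edgeR adjusted p = 0.0168), and its call was lost without JE1, LE6 or ME1 (up to 0.061). In Gpr124-/- against wild type, Amotl2, Cdh5, Cgnl1, Jam3, Lef1, Snai1 and Tjp1 did not pass with the letter term. In Gpr124ΔC/ΔC 2 genes of this list were lower, among them Sox7, beside 2.24% of all tested genes. Between the mutants 4 were lower in Gpr124-/-, among them Lef1 (−0.53), the ETS factor gene Erg (−0.36) and Sox7 (−0.25), beside 3.89% of all tested genes. The calls of Erg and Sox7 were not stable to leaving out embryos, as the call of Sox7 (edgeR adjusted p = 0.039) was kept without JE6 and lost without any other single embryo (up to 0.118), and that of Erg (edgeR adjusted p = 0.0327) was lost without JE1, JE4, LE2, LE5, ME1 or ME4 (up to 0.104). With the letter term, the calls of Igsf5 (adjusted p = 0.185) and Lef1 (0.89) between the mutants were lost too. Snai1 and Erg were named after their values were seen.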

How the data were processed

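RNA-seq was performed on CD31+ cells of 12 embryos, 4 per genotype, with the PicoPure and SmartSeq V4 kits, per the labels. The authors deposited unnormalized read counts for 49315 genes per library and a table of TPM, which equaled values recomputed from counts and gene lengths to within 0.00498%. Submitters' processing notes name bcl2fastq 2.17 and mm10. The aligner, counter and strand setting are not given in the sources used here.

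Counts were fitted in R 4.3.3 with edgeR 4.0.16 (filterByExpr, minimum count 10, TMM factors 0.946 to 1.04, glmQLFit and glmQLFTest, all 12 libraries, genotype as the only term). Benjamini-Hochberg adjustment covered the 16637 tested genes. A gene passed at an adjusted p under 0.05, and the study's rule adds an absolute log2 fold change above 1. Log2 CPM used a prior count of 2. The fit was tested on simulated data. Alternatives were upper-quartile factors, DESeq2 1.42.0, no count filter, a mean of at least 50 counts, the label letter as a term, only the compared genotypes, limma 3.58.1 on log2(TPM + 1) or log2(TPM + 0.1) for genes with a mean of at least 1 TPM or without that filter, and leaving out each library. Members and lists were chosen with earlier results of these data known. Named genes were all members, Adgra2, up to 4 genes per related list that passed by smallest p in Gpr124-/- against wild type, other claudins and angulins with a mean of at least 1 TPM, and the 5 best-correlated genes of each member that passed. Gene models came from GENCODE vM21 (49056 identifiers matched). Plots were drawn with matplotlib 3.10.9. Some genes that the naming rule selects are not reported here. No protein sequences were used here.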

Additional observations from a re-analysis of the deposited data

Results flagged for a closer look

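3 isolated values stood far from the other 3 embryos of their genotype by Dixon's test, out of 27 groups of 4 tested, where chance flags about 1 in 20. Cldn3 was at 2.21 TPM (17 reads) in Gpr124-/- embryo ME5, against 0.548 to 0.824 TPM in the other 3. Cldn11 was at 2.66 TPM (33 reads) in wild-type embryo KE8. Marveld3 was at 0.116 TPM (2 reads) in Gpr124ΔC/ΔC embryo LE5 and at 0 in the other 3, where any value above 0 would stand apart, so it rests on 2 reads. None of these genes passed an adjusted p under 0.05 with edgeR in any comparison.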

How the results depend on the processing

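The 4 lower calls in Gpr124-/- against wild type (Cldn5, Ocln, Marveld2 and Lsr) remained under all 21 alternatives, with adjusted p of at most 0.0434. In Gpr124ΔC/ΔC against wild type the 2 lower calls became 4 with DESeq2, 4 when the letter of the label was a term, and 0 with limma on log2(TPM + 1) without a filter, where Cldn5 had an adjusted p of 0.0674 and Lsr of 0.0874. The count past both thresholds in that comparison, 0, became 2 with the letter term and ranged from 0 to 2 with each embryo left out (1 without JE6, 2 without LE5). Between the mutants, the letter term reduced the 4 lower calls to 2 and those past both thresholds to 2. Values that did not pass changed sign in some fits: Cldn3 in Gpr124-/- against wild type was 0.41 with the letter term, Cldn3 between the mutants ranged from −0.36 to 0.58 with each embryo left out (−0.36 without ME5), and Adgra2 in Gpr124ΔC/ΔC against wild type ranged from −0.23 to 0.33 (−0.03 without KE8, −0.23 without JE3). Cldnd1 was −0.011 in Gpr124-/- against wild type and −0.23 between the mutants with the letter term, and ranged from −0.19 to 0.22 in Gpr124ΔC/ΔC with each embryo left out. In that comparison Tjp1 ranged from −0.21 to 0.023 and Snai1 from −0.0043 to 0.79, and Erg was 0.0217 with limma on log2(TPM + 1), with or without the filter, and 0.022 on log2(TPM + 0.1). The cause was not tested. No replicate block was fitted, since the labels give no replicate numbers shared between genotypes. The label letter, which wild type shares with each mutant but the mutants do not share with each other, was fitted as a term instead. In that fit the mutants are linked only through wild-type embryos. With 4 embryos per genotype and few reads, changes of Cldn1, Cldn3, Cldn11 and Marveld3 were poorly measured.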
